A study of Mus musculus with 12 samples.

Results

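The genes for the proteins of the cytosolic ribosome were followed in follicular zone B cells of the mouse spleen, with and without Bach2 and before and after stimulation through the B cell receptor. Members were the genes whose RefSeq symbol begins with Rpl or Rps and a digit, together with Rplp0, Rplp1 and Rplp2, found through the RefSeq accession of each probe, with Rps6k kinases and symbols marked as pseudogenes dropped. The rule reads symbols only, and it took 85 genes with 170 probes out of 37163 gene names on the array. Of the 85 members, 75 encode core ribosomal proteins, 46 of the large and 29 of the small subunit. A further 8 are paralogs of core genes, namely Rpl3l, Rpl7l1, Rpl10l, Rpl22l1, Rpl36al, Rpl39l, Rps4l and Rps27l, of which RefSeq lists Rps4l as a transcribed pseudogene. The last 2 match by name only: Rps19bp1, whose product binds Rps19, and Rps23rg1, a gene derived from a copy of Rps23. The rule does not take Rpsa, Fau and Rack1, which also encode ribosomal components, and no probe was named for Rps23.

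Cells came from the spleens of male C57BL/6J mice, either wild type (WT) or Bach2-/-, and were taken at 0 h or after 24 h with 10 µg/mL of an anti-mouse IgM Fab' fragment, which binds the B cell receptor. Bach2 is a transcriptional repressor that holds back plasma cell differentiation. Each of the 4 groups (WT 0 h, WT 24 h, Bach2-/- 0 h and Bach2-/- 24 h) had 3 one-colour Agilent arrays hybridised with Cy3-labelled total RNA, and the ages of the mice, the design of the Bach2 deletion and the pooling of animals are not given in the sources used here. No group was cultured for 24 h without the stimulus, so culture and stimulation cannot be told apart. The labels do not say that the 3 arrays of a group came from separate animals, so p-values measure only the scatter among these samples, and that scatter may be technical.

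Every value below is the log2 of a probe's processed signal over the 75th percentile of its array, with 1 probe per gene, and a difference of such values is a log2 difference. That percentile lay between 87.4 (Bach2-/- 24 h, array 2) and 307 (Bach2-/- 24 h, array 1), 50.9% to 66.7% of the 59305 non-control spots were well above background, and no spot was saturated. Array 1 of every group lay on 1 slide and arrays 2 and 3 on another, scanned on different days, so each comparison is also given within the slide of arrays 1 (1 array a group) and within the slide of arrays 2 and 3. Of 4 Y-linked genes, 0 were well above background on Bach2-/- 0 h array 1, labelled male, and 3 or 4 on each of the other arrays. All 14 B cell markers tested, Ms4a1 among them, were well above background on every array. Summed over the 14, with each array's 75th percentile as 1, they read 2140 to 2712 in WT and 2157 to 3263 in Bach2-/- at 0 h, and 987 to 1632 and 1013 to 1229 at 24 h. Single B cell markers, read without a test, did not all follow that sum. At 24 h Ms4a1, Pax5, Ebf1, Spib, Cd22, Cd79b, Bank1 and Cr2 were lower in Bach2-/- without overlap, and Cd74 was higher. Cr2 was also lower at 0 h, where the other tested markers of this list overlapped. Markers of other cells were also summed on this scale, without a test. The 11 marginal zone and B-1 markers (of 11 listed) read 39.1 to 44.8 in WT and 96.9 to 137 in Bach2-/- at 0 h, and 94.7 to 130 and 179 to 224 at 24 h. The 7 plasma cell markers tested (of 8) read 115 to 174 and 372 to 635 at 0 h, and 109 to 197 and 245 to 405 at 24 h. The 8 erythroid and platelet markers (of 13) read 9.19 to 18.5 and 35.2 to 105 at 0 h, and 3.33 to 4.62 and 13.1 to 36.2 at 24 h. The sums of these 3 lists were higher in Bach2-/- without overlap at both times. Such sums rest mostly on the brightest genes, such as Ly6c1 in the plasma cell list at 0 h, and not every listed gene followed. Sdc1 and Irf4 were not higher in Bach2-/- at 0 h, and Marcks and Cd1d1 were lower there at 24 h. Gp1bb and Ppbp overlapped between the genotypes at both times. For the other lists the sums of the genotypes overlapped at each time. Over all arrays the 9 neutrophil markers (of 12) read 1.79 to 59.1 and the 13 T cell markers (of 14) 98.2 to 171. The 8 macrophage and monocyte markers (of 13) read 14.5 to 72.8. Single genes differed nonetheless. Camp, Ltf, Ngp, Mpo and Mmp8 were higher in Bach2-/- at 0 h without overlap, while S100a8, S100a9 and Retnlg overlapped. Mpo and Mmp8 were well above background on 4 and 6 arrays. Elane had no value on array 2 of Bach2-/- at either time. Ms4a7 and Lyz2 were higher in Bach2-/- without overlap at both times. The part of these cells in the results was not tested. In bulk RNA, fewer cells of a type and less RNA per cell cannot be told apart. Bach2 itself read 3.99, 3.40 and 3.69 in WT at 0 h and 3.71, 3.22 and 3.68 at 24 h, against 1.33, 0.96 and 1.10 and then 0.15, −0.85 and 0.06 in Bach2-/- cells. It was lower in Bach2-/- at both times, by −2.56 (limma adjusted p = 0.0024) and −3.75 (adjusted p = 5.53e-05), although where its probe lies relative to the deletion is not known.

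Ribosomal proteins line a ribosomal RNA scaffold whose large subunit joins amino acids and whose small subunit reads the mRNA. In vertebrates nearly all of their mRNAs begin with a C followed by a run of pyrimidines, the 5′ terminal oligopyrimidine (TOP) motif, through which mTORC1 and Larp1 control how strongly these mRNAs are translated. Naive B cells are small and poor in ribosomes, and activation through the receptor is known to switch on growth, with Myc driving genes of ribosome assembly. An array reads the amount of each mRNA relative to the others on it, and therefore sees neither translation nor total RNA per cell.

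The promoters below are shown because the results turn on these genes: Rps6 and Rpl14 as core members with a run at the start, Rps2 as the core gene called in WT, and paralogs with core partners. Each stretch runs from 80 bases before the RefSeq start to 20 bases from it onward, 5′ to 3′ on the gene's own strand (RefSeq, build GRCm38.p6). Rps27l and Rpl22 have 2 RefSeq windows each, and the stretch shown is from the first. Capitals mark pyrimidine runs of at least 8 bases that open with C near the start, and the motifs named in the next paragraph where they occur.
Rps6, chr4:86857348-86857447, minus strand: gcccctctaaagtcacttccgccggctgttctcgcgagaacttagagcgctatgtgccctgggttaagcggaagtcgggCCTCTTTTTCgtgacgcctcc
Rpl14, chr9:120571437-120571536, plus strand: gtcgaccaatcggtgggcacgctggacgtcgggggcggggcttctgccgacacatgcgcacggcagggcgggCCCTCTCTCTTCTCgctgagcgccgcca
Rps2, chr17:24719983-24720082, plus strand: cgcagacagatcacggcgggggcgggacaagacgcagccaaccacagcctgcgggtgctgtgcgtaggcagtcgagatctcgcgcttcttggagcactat
Rps27, chr3:90213629-90213728, minus strand: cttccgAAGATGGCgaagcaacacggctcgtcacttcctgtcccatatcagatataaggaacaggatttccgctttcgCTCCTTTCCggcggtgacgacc
Rps27l, chr9:66946006-66946105, plus strand: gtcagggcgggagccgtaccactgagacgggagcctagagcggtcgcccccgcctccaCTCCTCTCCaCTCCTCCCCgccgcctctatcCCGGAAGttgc
Rpl22, chr4:152325646-152325745, plus strand: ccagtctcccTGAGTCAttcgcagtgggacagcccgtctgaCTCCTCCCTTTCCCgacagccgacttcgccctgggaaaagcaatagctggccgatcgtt
Rpl22l1, chr3:28805428-28805527, plus strand: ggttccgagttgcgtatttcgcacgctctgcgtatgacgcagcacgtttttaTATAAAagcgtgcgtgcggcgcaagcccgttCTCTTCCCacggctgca
Rpl7l1, chr17:46782637-46782736, minus strand: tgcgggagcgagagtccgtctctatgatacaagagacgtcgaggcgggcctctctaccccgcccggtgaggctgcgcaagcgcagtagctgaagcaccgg
The printed stretches of Rps2 and Rpl7l1 hold none of these letters, although the longer window searched next holds a run, CCGGAAG and TATAAA for Rps2, and for Rpl7l1 the YY1 letters. Those of Rps6 and Rpl14 hold a run around the start, and Rps27l holds 2 runs before it.

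RefSeq windows of 300 bases were matched for 64 of the 85 members, 55 of them core genes. A pyrimidine run that opens with C, has at least 8 bases on the gene's strand and begins within 50 bases of the start was found in 47 of the 55 core genes, or 85.5%, against 31.5% of all 27025 windows. Among the 10525 windows of genes tested here the share was 32.0%. CCGGAAG, read on both strands, is known as a site of ETS factors. It was found in 23 core genes, or 41.8%, against 9.93% of all genes with a window and 18.8% of the tested ones. AAGATGGC, a YY1 site also read on both strands, was found in 5 (9.09%, against 3.19% and 4.95%). The E-box CACGTG, bound by Myc and Max, was found on both strands in 6 (10.9%, against 8.09% and 11.3%). That share was above that of all genes with a window and just below that of the tested ones. TGANTCA on both strands, the core that AP-1 and Bach2 with small Maf proteins can bind, was found in 2 (3.64%, against 8.97% and 6.44%), and TATAAA on the gene's strand in 5 (9.09%, against 9.77% and 6.57%). A match describes letters only. The 24 h difference in WT had a median of 0.47 over the 47 core genes with a run and of 0.43 over the 8 without.

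A gene was tested where a probe stood well above background in 1 group or more on each of its 3 arrays, which 83 members passed. Rpl3l, with its probe well above background on 1 array, and Rpl10l, with probes well above background on 6 arrays and on 0, were not tested. Among the 83, 82 were well above background on all 12 arrays, and Rpl39l was on 7. The core genes moved as 1 block from array to array: the median correlation between core genes over the 12 arrays was 0.81, and 0.84 for deviations from the group means, a description in which arrays share slide and scaling. The median deviation of the 75 core genes from their own means in WT was −0.11, −0.04 and −0.34 at 0 h, then 0.71, 0.12 and 0.02 at 24 h. It was 0.24, −0.25 and −0.32 in Bach2-/- at 0 h and −0.07, 0.17 and −0.09 at 24 h. The 3 WT 24 h arrays thus stood above the 3 WT 0 h arrays, with array 1 far above arrays 2 and 3, while the Bach2-/- groups overlapped.

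**Figure D1:**
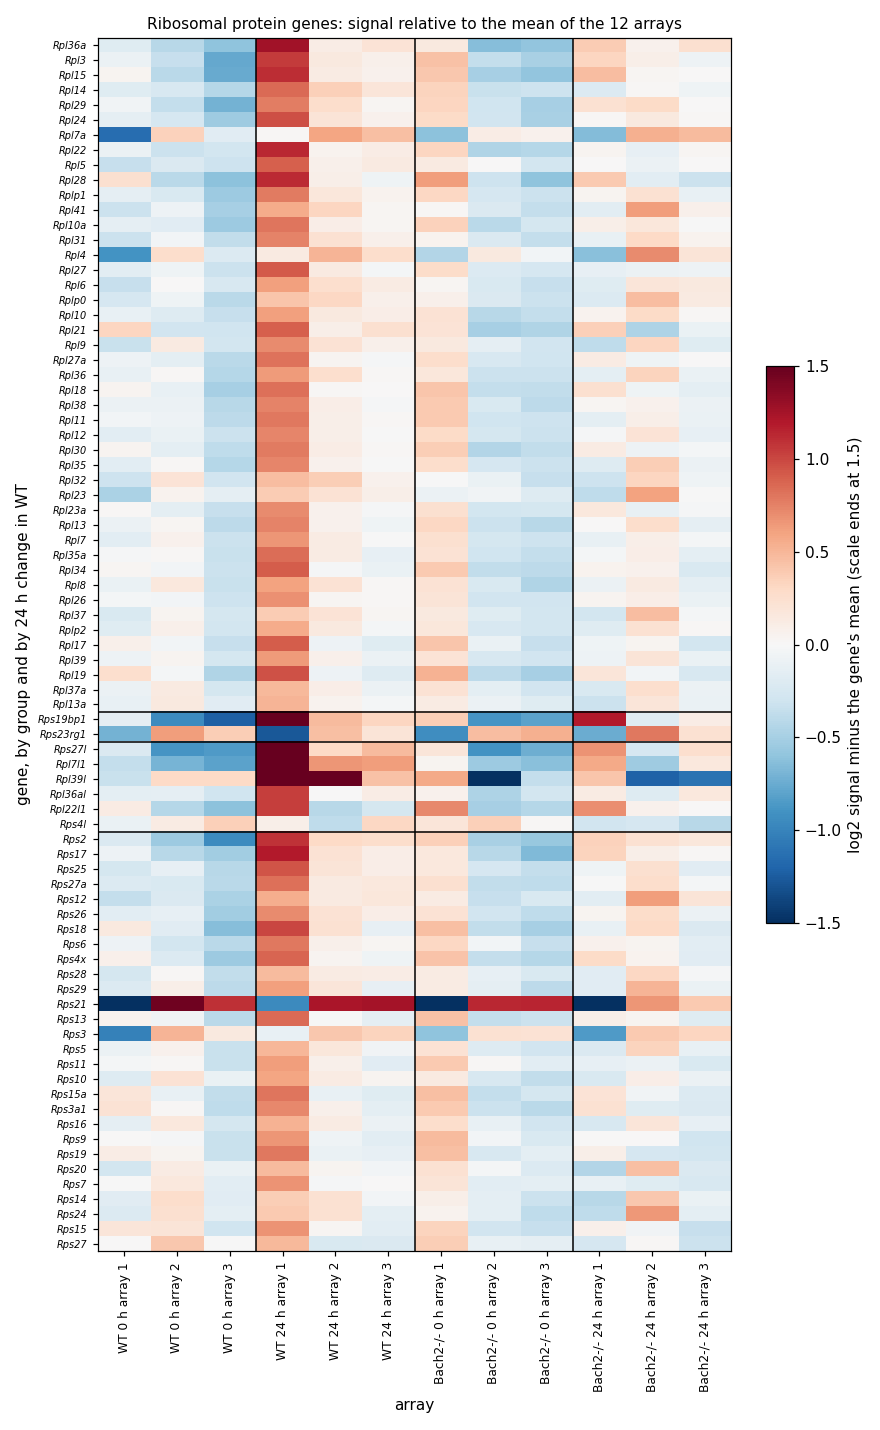
Each row is 1 of 81 tested members, each column 1 of the 12 arrays, and the colour is the log2 value minus that gene's mean over the arrays, with the scale ending at 1.5 either way. The WT 24 h column of array 1 is high over nearly all core genes, and Rps21 is low on array 1 of every group.

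Between 0 h and 24 h with anti-IgM, WT cells showed a positive log2 difference for 80 of 83 members, with a median of 0.47 against 0.04 over all 22732 genes tested. Only 4 members passed limma's test, all higher: the paralogs Rpl7l1 and Rps27l, the Rps19-binding Rps19bp1 and the core gene Rps2. This compares with 11.5% of all genes called higher, so the share of members called was below that of the array. With the replicate number as a block, 36 members were higher and 0 lower, where 27.7% of all genes were called higher. That the number pairs samples beyond the slide is not shown. The 3 arrays at 24 h lay above all 3 at 0 h for 37 members, with a background of 22.3%. The size differed between slides, with a median of 0.26 on arrays 2 and 3 and 0.84 on arrays 1. Without WT 24 h array 1 the median was 0.24 and 1 member was called, and 1 was also called without WT 0 h array 2 or without WT 0 h array 3. Under quantile normalization the median was 0.07 and only 50 of 83 differences were positive, while scaling to the array median gave 0.62 with 82 positive and moved the median of all genes from 0.04 to 0.20.

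**Figure D2:**
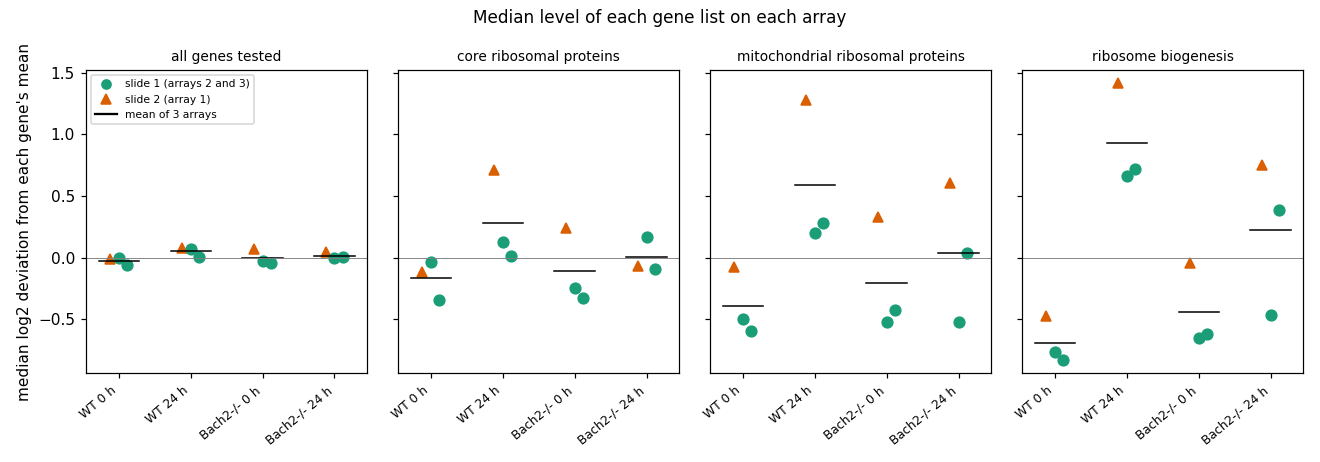
Each point is 1 array's median, over a list, of log2 values minus each gene's mean, for all genes tested, core ribosomal protein genes, mitochondrial ribosomal protein genes and ribosome biogenesis genes; triangles are arrays 1, circles arrays 2 and 3, and lines the mean of 3. The core medians at WT 24 h span 0.02 to 0.71.

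Rps2, which lies at the mRNA entry of the small subunit, was the core gene that passed in WT. It read 9.15, 8.82 and 8.41 at 0 h and 10.44, 9.65 and 9.62 at 24 h in WT, and 9.72, 8.87 and 8.79 and then 9.71, 9.59 and 9.53 in Bach2-/-. All 3 WT 24 h arrays stood above the 3 at 0 h, whereas in Bach2-/- array 1 had no such step and the groups overlapped. The WT difference was 1.11 ± 0.33 (SE, n = 3 a group; 2.16-fold, limma adjusted p = 0.0318), and that in Bach2-/- was 0.48 without passing. Among the other 7 listed genes of the mRNA channel and decoding centre, of which 6 were tested, the WT differences ran from 0.15 for Rps15 to 0.61 for Rps26, and neither of those passed without the block. The small subunit as a whole had a median of 0.33 over 29 genes. Of these 1 was called, where 11.5% of all genes were called higher. With the block 8 were called, near the share of 27.7% of all genes called higher.

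Rps6, the small subunit protein phosphorylated by S6 kinase downstream of mTORC1, read 9.52, 9.33 and 9.20 in WT at 0 h and 10.39, 9.67 and 9.63 at 24 h. In Bach2-/- it read 9.91, 9.55 and 9.26 and then 9.67, 9.64 and 9.44. The WT groups did not overlap and the Bach2-/- groups did. Its WT difference of 0.55 was called only with the block (adjusted p = 0.188 without it, 0.0162 with it). Rps19, the gene most often mutated in Diamond-Blackfan anaemia in humans, differed by 0.25 in WT and −0.17 in Bach2-/-, and neither passed. Rps27a, which is made as a fusion with ubiquitin, differed by 0.65 in WT (adjusted p = 0.11; 0.0175 with the block), and Rps4x, the X-linked copy of the Rps4 family, by 0.51 (adjusted p = 0.337; 0.0237 with the block). The 11 tested genes linked to Diamond-Blackfan anaemia had a median WT difference of 0.39.

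The 46 large subunit genes had a median WT difference of 0.48, up to 0.92 for Rpl36a. Of these 0 were called (limma, adjusted), where 11.5% of all genes were called higher. With the block 24 were called (27.7% of all genes called higher), and the arrays of 23 did not overlap (22.3% of all genes higher without overlap). Of the P stalk, which recruits the elongation factors, the differences were 0.51 for Rplp0, 0.64 for Rplp1 and 0.35 for Rplp2, of which Rplp0 and Rplp1 were called with the block (adjusted p = 0.0441 and 0.0116). Rpl5 and Rpl11, which bind 5S rRNA and can also bind Mdm2, differed by 0.66 and 0.47. Rpl5 read 7.75, 7.87 and 7.79 in WT at 0 h and 8.99, 8.17 and 8.23 at 24 h, against 8.23, 8.10 and 7.82 and then 8.10, 8.01 and 8.11 in Bach2-/-. Its WT groups were well apart, and its Bach2-/- groups overlapped. With the block Rpl5 was called (adjusted p = 0.0171) and Rpl11 was not (0.0789). Rpl10 and Rpl10a, at the tRNA sites and the L1 stalk, differed by 0.51 and 0.60, and both were called with the block (adjusted p = 0.0341 and 0.0245). Rpl3, at the peptidyl transferase centre, differed by 0.82 (adjusted p = 0.118; 0.00267 with the block). Rpl38, known from the mouse for its part in the translation of Hox mRNAs, differed by 0.47 (adjusted p = 0.0499 with the block). The listed tunnel exit genes, 8 in number, had a median of 0.39.

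The changes of single members were also read against that of the core genes. Each array was also centred on the median of the 75 core genes, a scaling chosen after the data were seen. The change of Rpl7l1 from 0 h to 24 h in WT then exceeded that of the core median by 1.01 ± 0.29 (SE, limma adjusted p = 0.0286). The change of Rps27 fell short of that of the core median, at −0.67 ± 0.19 (adjusted p = 0.0287). These are changes and not levels. On that scale the median of all genes was −0.50 and 23.4% of genes were called in either direction. The share of members called, 1 higher and 1 lower of 83, was thus below that of the array. Rps27, a zinc-binding protein of the small subunit, read 10.27, 10.67 and 10.25 in WT at 0 h and 10.75, 10.03 and 10.04 at 24 h, so that it was lower on arrays 2 and 3 and higher on array 1. On the percentile scale its WT difference was −0.12 ± 0.27 (adjusted p = 0.826). With the block and this centring 4 members had a higher WT change than the core median (Rpl7l1, Rps19bp1, Rps2 and Rps27l), where 11.2% of all genes were called higher. A lower WT change than the core median was called for 5, among them Rps15, Rps23rg1, Rps27 and Rps4l, where 42.3% of all genes were called lower. Of the latter, Rps15 and Rps23rg1 are named here because they passed this test.

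Paralogs showed larger WT differences than their core partners in some pairs and not in others. Rps27l, a paralog of Rps27 and a target of p53 in human and mouse cells, read 5.80, 5.14 and 5.18 in WT at 0 h and 7.97, 6.33 and 6.50 at 24 h. In Bach2-/- it read 6.21, 5.12 and 5.29 and then 6.70, 5.77 and 6.28. It rose in WT by 1.56 ± 0.46 (SE; 2.95-fold, adjusted p = 0.0329), its 3 arrays at 24 h standing clear of those at 0 h. In Bach2-/- the groups overlapped and the difference of 0.71 was called only with the block (adjusted p = 0.024). The gap between Rps27l and Rps27 went from −5.02 ± 0.53 (SD, n = 3) at 0 h to −3.34 ± 0.50 at 24 h in WT, a shift of 1.68 with no overlap between the groups. An exact permutation test of that shift gave p = 0.1, which is the smallest that 3 against 3 arrays allow. Over 6 pairs and 4 comparisons 24 such tests were made. After Benjamini-Hochberg adjustment over the 24, each permutation p of 0.1 became 0.343, so none passed. A probe's brightness depends on its sequence, so such a gap has no meaning as a ratio of mRNAs and only its shift is read.

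Rpl7l1, a paralog of Rpl7 with a role in ribosome assembly, read 0.81, 0.48 and 0.38 in WT at 0 h and 2.69, 1.84 and 1.80 at 24 h. It read 1.22, 0.63 and 0.54 and then 1.75, 0.64 and 1.33 in Bach2-/-. Its 3 WT arrays at 24 h were the highest of the 12. The rise in WT was 1.55 ± 0.35 (SE; 2.93-fold, adjusted p = 0.00922), and the Bach2-/- difference of 0.44 did not pass. Its partner Rpl7, of the large subunit, differed by 0.40 in WT (adjusted p = 0.327), and the shift of Rpl7l1 against Rpl7 was 1.15 without overlap (exact permutation p = 0.1). Rps19bp1, which is also reported to activate the deacetylase Sirt1, read 3.67, 2.86 and 2.58 in WT at 0 h, 5.50, 4.28 and 4.13 at 24 h, 4.17, 2.92 and 2.99 in Bach2-/- at 0 h and 4.99, 3.62 and 3.92 at 24 h. Its WT groups did not overlap, unlike those of Bach2-/-. Rps19bp1 rose in WT by 1.60 ± 0.51 (SE; 3.03-fold, adjusted p = 0.0445), and its Bach2-/- difference of 0.81 was called only with the block (adjusted p = 0.00238).

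The other pairs gave smaller or opposite shifts. Rpl22 and Rpl22l1, whose products in mice act on each other's expression and on lymphocyte development, differed by 0.66 and 0.43 in WT, and Rpl22 was called only with the block (adjusted p = 0.0236). Rpl22 read 8.96, 8.73 and 8.78 and then 10.18, 9.10 and 9.16 in WT, and 9.37, 8.59 and 8.62 and then 9.09, 8.93 and 9.08 in Bach2-/-. Rpl22l1 read 7.90, 7.35 and 7.16 and then 8.82, 7.36 and 7.51 in WT, and 8.50, 7.28 and 7.35 and then 8.48, 7.84 and 7.79 in Bach2-/-. At 24 h Rpl22l1 lay closer to Rpl22 in Bach2-/- than in WT, by 0.59 and without overlap (exact permutation p = 0.1). Rpl36a and its retroposed copy Rpl36al differed by 0.92 and 0.58 in WT. The shift of Rpl36al against Rpl36a was −0.35 in WT and −0.34 in Bach2-/-, both without overlap (exact permutation p = 0.1 for each). With the block Rpl36a was called in both genotypes (adjusted p = 0.00326 in WT and 0.0405 in Bach2-/-) and Rpl36al in WT (0.0393). Rpl39 differed by 0.31, and Rpl39l, a paralog known from mouse male germ cells, lay near background and scattered from −6.64 to −2.39. At 24 h the shift of Rpl39l against Rpl39 between the genotypes was −1.72, without overlap (exact permutation p = 0.1). Rps4l differed by −0.12 in WT against 0.51 for Rps4x. In Bach2-/- the shift of Rps4l against Rps4x from 0 h to 24 h was −0.68, without overlap (exact permutation p = 0.1).

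**Figure D3:**
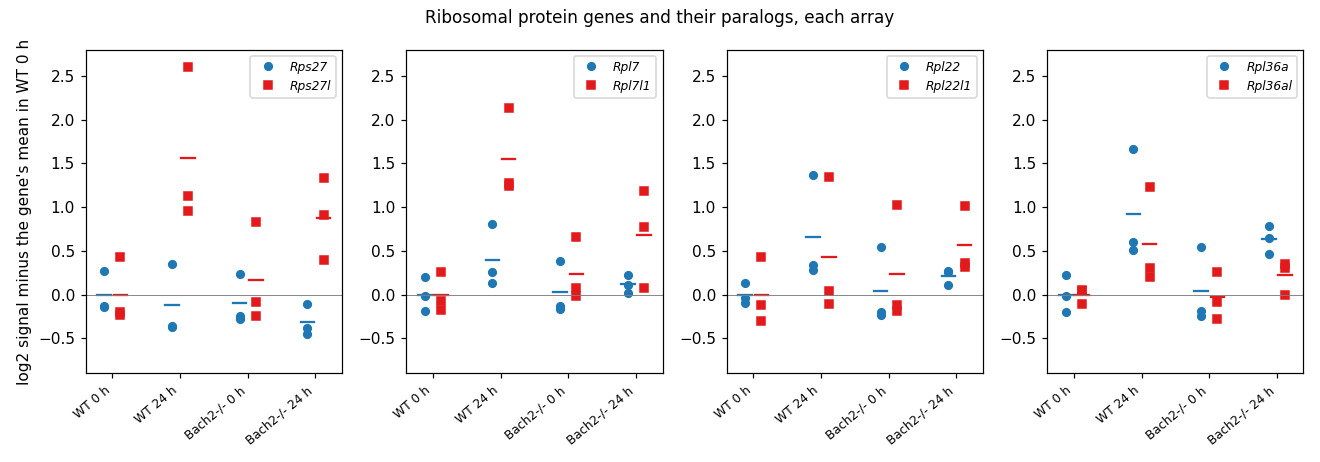
For 4 pairs, each point is 1 array's log2 value minus that gene's WT 0 h mean, with the core gene and its paralog drawn side by side in the 4 groups. Rps27l and Rpl7l1 stand above their partners on every WT 24 h array, while Rpl22l1 does not stand above Rpl22 there.

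In Bach2-/- cells the members' 24 h difference had a median of 0.12 against 0.07 over all genes, and 0 of 83 passed limma's test, with 13.3% of all genes called in either direction and 0 members at an unadjusted p under 0.05. With the block 3 members were higher (Rpl36a, Rps19bp1 and Rps27l; 16.7% of all genes) and 1 lower (Rps21; 16.8% of all genes). The median was 0.33 on arrays 2 and 3 and −0.28 on arrays 1, so the direction differed between the slides. Without the 2 doubted arrays, Bach2-/- 0 h array 1 and Bach2-/- 24 h array 2, the median was 0.23. Scaling to the array median gave −0.03 and quantile normalization −0.01, with 35 and 34 members of the opposite sign. The member with the smallest unadjusted p was Rps4l. It read 1.30, 1.48 and 1.14 at 0 h and 0.84, 0.87 and 0.71 at 24 h in Bach2-/-, with no overlap, where 13.6% of all genes had lower arrays at 24 h without overlap. In WT it read 1.03, 1.25 and 1.49 and then 1.21, 0.74 and 1.44, and those groups overlapped. Its Bach2-/- difference was −0.50 (adjusted p = 0.245). No other member's arrays were separated in Bach2-/-, in either direction.

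Rps21, a small subunit protein called lower with the block in Bach2-/-, had the level that differed most between the slides. Its probe read 4.57, 8.23 and 7.86 in WT at 0 h, 5.82, 7.995 and 8.02 in WT at 24 h, 5.09, 7.90 and 7.91 in Bach2-/- at 0 h and 3.24, 7.44 and 7.16 in Bach2-/- at 24 h. Array 1 was thus far below arrays 2 and 3 in every group. Arrays 1 and arrays 2 and 3 differed on average by −3.14 for Rps21, against a median of 0.33 over the members. Of the 83 members, 2 were lower on arrays 1 by more than 1, or 2.41%, against 13.1% of all genes.

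At 0 h, before stimulation, no member differed between the genotypes by limma's test, with 0.629% of all genes called in either direction, and none at an unadjusted p under 0.05. With the block 0 members and 3.7% of all genes were called, and the arrays of 0 members and 12.1% of all genes did not overlap. The median difference of Bach2-/- against WT was 0.07 over the members and 0.03 over all genes. It was −0.08 on arrays 2 and 3 and 0.37 on arrays 1, the slide whose Bach2-/- 0 h array has no Y-linked signal. Without that array and the dimmest one (Bach2-/- 24 h array 2) the median at 0 h was −0.11. The members with the smallest p were Rpl39l at −0.82, Rps2 at 0.33 and Rpl5 at 0.25, and the adjusted p of each was 1.00. For Rpl39l, well above background on 1 of the 3 Bach2-/- 0 h arrays, leaving out single arrays moved that value from −1.47 to 0.02. Rplp0, Rplp1 and Rplp2 differed by 0.09, 0.21 and 0.02, and Rps6 by 0.22.

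At 24 h the difference of Bach2-/- against WT was negative for 81 of 83 members, the exceptions being Rpl22l1 (0.14) and Rps23rg1 (0.30), with a median of −0.28 against −0.05 over all genes. None passed limma's test, with 2.98% of all genes called in either direction, and 2 members were lower at an unadjusted p under 0.05. With the block 4 were lower, Rps21, Rpl21, Rpl7l1 and Rps27l, where 10.7% of all genes were called lower. The arrays of 7 members (Rpl5, Rpl7l1, Rpl14, Rpl22, Rpl27, Rpl39l and Rps7) were lower in Bach2-/- without overlap, with a background of 7.64%. The median was −0.03 on arrays 2 and 3 and −0.74 on arrays 1, without WT 24 h array 1 it was −0.06, and without the 2 doubted arrays −0.35. It was −0.49 when arrays were scaled to their median, where that of all genes moved from −0.05 to −0.27, and −0.07 under quantile normalization, where 67 of 83 were negative. Without Bach2-/- 24 h array 1 it was −0.28, with 72 of 83 negative.

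Rpl14, a large subunit protein, read 9.71, 9.65 and 9.46 in WT at 0 h and 10.74, 10.25 and 10.07 at 24 h, against 10.23, 9.55 and 9.58 and then 9.69, 9.91 and 9.83 in Bach2-/-. At 24 h every WT array was above every Bach2-/- array. The difference of −0.55 ± 0.26 (SE) did not pass (limma adjusted p = 0.429; 0.068 with the block). Rpl7l1 was lower in Bach2-/- by −0.87 (adjusted p = 0.314; 0.0134 with the block), and all 3 of its WT 24 h arrays exceeded the Bach2-/- arrays. Rps27l, which differed by −0.68, was called with the block (adjusted p = 0.0455), and Rpl21, a large subunit gene of low signal here, by −0.48 (0.0314). Rpl39l differed by −1.92 ± 0.70 (adjusted p = 0.24), with 1 of the 3 Bach2-/- 24 h arrays well above background. Rplp0, Rplp1 and Rplp2 differed by −0.14, −0.28 and −0.20, Rpl11 by −0.35, Rpl10 by −0.17, Rpl10a by −0.23, Rpl38 by −0.27, Rps19 by −0.33, Rps27a by −0.30 and Rps4x by −0.22, and none of these 10 passed with or without the block.

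**Figure D4:**
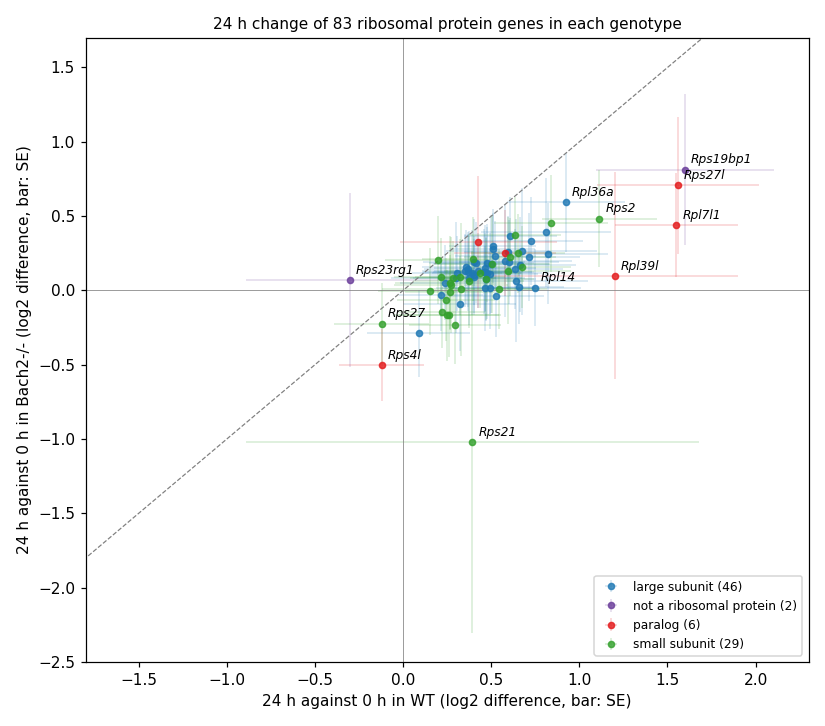
Each point is a member's log2 difference of 24 h against 0 h in WT (horizontal) and in Bach2-/- (vertical), with standard errors of the fit as bars. Of the 75 core genes 74 lie below the diagonal, and Rps2, Rpl7l1, Rps27l and Rps19bp1, which passed in WT, lie to the right of 1.

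The difference of the 24 h change between the genotypes was tested directly. It had a median of −0.33 over the members and −0.09 over all genes, 81 of 83 were negative, and 0 passed limma's test (0.317% of all genes called in either direction), with 1 lower at an unadjusted p under 0.05. Arrays 2 and 3 gave a median of 0.05 and arrays 1 one of −1.12. Without WT 24 h array 1 the median was −0.13, and without the 2 doubted arrays −0.25. With the block 1 member, Rpl7l1, had a smaller change in Bach2-/- (−1.11 ± 0.49 SE; adjusted p = 0.682 without and 0.0471 with the block), where 2.56% of all genes were called lower. Rpl14 and Rpl5 followed at −0.73 and −0.64, and neither passed in either fit. The effects of 24 h in the 2 genotypes are therefore not shown to differ for the core genes.

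Genes that work on or beside the ribosome had larger median differences in WT than the members, a contrast between lists that was not tested. The 50 ribosome biogenesis genes, whose products process rRNA and assemble the subunits, had a median 24 h difference of 1.58, and 42 rose by limma's test and 0 fell. Nop16, a nucleolar protein of large subunit assembly, rose by 2.35 (adjusted p = 0.0152), and Nhp2, of the box H/ACA particles that modify rRNA, by 2.31 (adjusted p = 0.000611). Of the 77 tested genes for mitochondrial ribosomal proteins 20 rose and 0 fell, with a median of 0.98, among them Mrps6 by 2.07 (adjusted p = 0.00811) and Mrps28 by 1.82 (adjusted p = 0.0218). Of 24 translation factors and other proteins whose mRNAs are TOP mRNAs, 11 rose, with a median of 0.91, led by the poly(A)-binding protein Pabpc4 (1.98, adjusted p = 0.000481) and the RNA-binding protein Hnrnpa1 (1.87, adjusted p = 0.000504). In the main fit 11.5% of all genes were called higher. Under array-median scaling 27 biogenesis, 6 mitochondrial and 5 TOP genes were called higher (6.3% of all genes), and under quantile normalization 43, 33 and 7 (12.4%). With normexp 38, 16 and 6 were called higher (8.23% of all genes), and with the block 50, 70 and 21 (27.7%). Both slides carried these differences, with biogenesis medians of 1.42 on arrays 2 and 3 and 1.88 on arrays 1, and mitochondrial medians of 0.78 and 1.39. Among the ribosomal proteins outside the naming rule, Rpsa differed by 0.65, Rack1 by 0.44 and Fau by −0.05, and none passed without the block, with which Rpsa was called (adjusted p = 0.0101).

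Regulators of TOP mRNAs were read from a list of 25, of which 24 were tested. In WT 3 rose and 2 fell, where 11.5% of all genes were called higher and 9.06% lower. These counts are thus near the shares over all genes. Larp1, which binds the TOP motif, rose by 1.55 (adjusted p = 0.00783), and the cap-binding factor Eif4e by 1.20 (adjusted p = 0.0119). Sesn1 and Sesn3, which hold back mTORC1, fell by 2.004 (adjusted p = 0.00213) and 0.90 (adjusted p = 0.0125). Myc rose in WT by 2.28 (adjusted p = 0.0138) and differed by 0.57 in Bach2-/- (adjusted p = 0.665), and the difference between these changes, −1.71, did not pass (adjusted p = 0.699; 0.05 with the block). The 8 tested genes of the Myc network had a median of −0.21, and Myc was the 1 called, again near the share of all genes called higher.

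In Bach2-/- the same lists had smaller 24 h differences, with medians of 0.61 for biogenesis (0 called; 29 higher with the block and 17 under quantile normalization), 0.23 for mitochondrial ribosomal proteins (0 called; 16 higher and 1 lower with the block, 4 higher under quantile normalization) and 0.35 for TOP factors (4 higher; 7 with the block, 0 under array-median scaling). Of all genes, 5.5% were called higher in this comparison, 16.7% with the block, 7.66% under quantile normalization and 2.79% under array-median scaling. The mitochondrial counts thus lie near or below these shares. Between the genotypes at 24 h, 10.7% of all genes were called lower with the block. The biogenesis genes had a median of −0.67 there, with all 50 negative, 0 called and 30 lower with the block. That median was −0.68 on arrays 2 and 3 and −0.62 on arrays 1, so it was as large on either slide, while the median of the members was −0.03 and −0.74. On arrays 2 and 3 it leaned on the dimmest array, since the median deviation of the biogenesis genes at 24 h in Bach2-/- was 0.75, −0.47 and 0.39, against 1.41, 0.66 and 0.72 in WT. Mitochondrial ribosomal protein genes had −0.54, with 0 called and 24 lower with the block, and −0.44 and −0.71 by slide. The direct test of the difference of the changes called 0 biogenesis genes (10 lower with the block, median −0.96) and 0 mitochondrial ones (0 with the block, median −0.73). In that test 2.56% of all genes were called lower with the block.

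**Figure D5:**
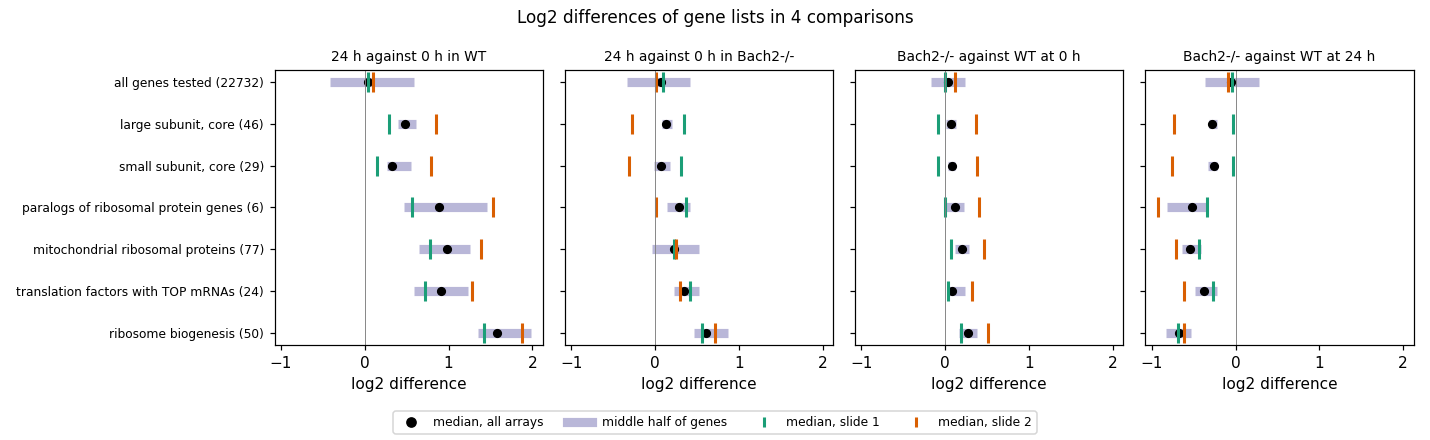
For 7 gene lists and 4 comparisons, the marks give the median log2 difference, the bar the range between the lower and upper quartile of the genes, and separate marks the medians within the slide of arrays 2 and 3 (slide 1) and within the slide of arrays 1 (slide 2). Biogenesis genes lie farthest from 0 in WT (median 1.58) and keep their place on both slides at 24 h between genotypes, where the core genes do not.

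Readings of a member could depend on the probe. For 50 members at least 2 probes passed the filter, and the range of their WT 24 h differences had a median of 0.16, with 6 members over 0.5. A dim probe of Rps27a gave 3.03 where the other 2 gave 0.65 and 0.76. Rps24 was the 1 member whose probes had opposite signs in WT, with −0.41 for one and 0.34 and 0.20 for the other 2. Rps24 was chosen after its values were seen. Symbols of ribosomal protein pseudogenes number 309 in the gene table and 62 members have one, and probe sequences were not used here, so the share of signal that a copy gives was not tested.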

How the data were processed

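Total RNA of 12 samples (4 groups of 3) was read on 1-colour Agilent arrays of 55681 probes. The authors deposited scanner tables made with Agilent Feature Extraction 10.7.3.1, per the file headers, in which the processed signal is a linear intensity after background subtraction. The deposited series table holds log2 values, and it followed the log2 processed signal on each array (r from 0.9988 to 0.9999); by that match its scale is log2 and its direction that of the signal, while how it was centred stays unknown (column medians from −0.27 to 0.49), and it served as an alternative.

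Here, non-control spots without outlier flags (112 to 511 flagged an array) were averaged per probe, divided by the array's 75th percentile, floored at 0.01 and turned to log2. A probe was kept when well above background on all 3 arrays of a group (30719 probes), and each gene took its kept probe of highest mean, leaving 22732 genes. Symbols came from RefSeq (GRCm38.p6 table) for 26407 probes, with 20124 of 20569 NM accessions matched. The 4 group means were estimated from the 12 arrays together by limma 3.58.1 in R 4.3.3, with 2-sided tests, Benjamini-Hochberg adjustment over 22732 genes and a threshold of 0.05. The 5 comparisons were genotype at each time, time in each genotype and the difference of the changes. The number of arrays limits the precision.

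Replicate numbers come from the labels. All 18 pairs of arrays with the same number shared a slide and deviated together (r from 0.47 to 0.89). The fit with the number as a block is given where it changes a call. Other pairs on the same slide had r from 0.25 to 0.64, and pairs across slides from −0.81 to −0.42. The ranges of pairs with the same number and of other pairs on a slide overlapped, so pairing beyond the slide is not shown. For number 1 in Bach2-/-, 0 of 4 Y-linked genes were well above background at 0 h and 4 at 24 h. There the number joined samples that differ in Y-linked signal.

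The members and gene lists were chosen with earlier results of these data known. Genes named were the up to 4 members past the test with the largest rise or fall in each comparison (or the 3 of smallest p), a set of 25 members fixed by role or paralogy, Bach2, Myc, Larp1, the ribosomal proteins outside the rule and up to 2 extremes of each list; members that a count of 5 or fewer or a non-overlap singled out were named afterwards. Alternatives were quantile normalization, array-median scaling, normexp, no filter, the mean of a gene's probes, the compared groups alone, blocks by replicate or slide, 1 slide alone, the deposited table and leaving out arrays. Added after the data were seen were fits without the 2 doubted arrays (Bach2-/- 0 h array 1 and Bach2-/- 24 h array 2) and centring on the core median. Results for a few genes are not reported here.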

Additional observations from a re-analysis of the deposited data

Results flagged for a closer look

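The difference of the 24 h change between genotypes for Rpl7l1 was −1.11 (log2), and it passed the direct test of that difference with the replicate number as a block (limma adjusted p = 0.0471) and not without it (adjusted p = 0.682). Its change was 1.55 in WT and 0.44 in Bach2-/-. No explanation was weighed.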

How the results depend on the processing

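Members called higher in WT at 24 h numbered 4. They numbered 1 when arrays were scaled to their median (6.3% of all genes called higher in the same fit), 2 with normexp background correction (8.23%), 1 without the filter (5.44%), 9 when probes of a gene were averaged (12.1%), 2 with only the compared groups (10.3%), 36 with the replicate block (27.7%), 32 with the slide block (26.6%), 7 on slide 1 (arrays 2 and 3) alone (15.8%) and 36 with the block and without the 2 doubted arrays (29.4%). Leaving out single arrays gave 1 to 5. Rpl7l1 was called in WT under every one of these settings, with an adjusted p of at most 0.0496, whereas Rps2, Rps27l and Rps19bp1 were each lost in some. Members lower at 24 h in Bach2-/- against WT numbered 0 (0.831% of all genes called lower), but 4 with the replicate block (10.7%), 3 with the slide block (8.58%) and 1 with the block and without the 2 doubted arrays (3.78%). In Bach2-/-, 24 h against 0 h, 0 members were higher (5.5% of all genes called higher), but 3 with the replicate block (16.7%), 3 with the slide block (15.3%), 4 on slide 1 alone (9.03%) and 2 with the block and without the 2 doubted arrays (15.6%). In the same comparison 1 was lower with the replicate block (16.8% of all genes) and 1 with the slide block (15.8%). For the difference of the changes 1 was lower with the replicate block (2.56% of all genes) and 1 with the slide block (2.05%). Centred on the core median, 1 member was higher (5.2% of all genes) and 1 lower (18.2%) in WT, with medians of −0.0777 in WT, 0.0213 between genotypes at 24 h and 0.0817 for the difference of the changes. With this centring and the block 5 were lower in WT (42.3% of all genes), 3 higher (9.66%) and 1 lower (16.1%) in Bach2-/- and 1 lower between genotypes at 24 h (1.65%). The WT median of 0.47 became 0.0675 under quantile normalization, and the median difference of the changes, −0.33, became −0.63 with array-median scaling and 0.0455 on slide 1 alone. Without single arrays the medians ran from −0.11 to 0.16 between genotypes at 0 h, −0.41 to −0.06 at 24 h, 0.24 to 0.60 in WT, 0.03 to 0.31 in Bach2-/- and −0.47 to −0.13 for the difference. Over single named genes 3513 values were marked as the same, whether called or not, 160 as moved, 75 as gaining a call and 27 as losing it. In 0 was a call reversed. Since the main fit called only 4 members, most values marked as the same were not called in the first place. The causes were not tested. Dim members such as Rpl39l and Rpl21 have the least signal over background.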

Other observations

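Probes of 8 out of 166 kept for the members read lower on the slide of arrays 1 by more than 1 on the log2 scale. They belong to Rpl17 (2 probes, −4.00 and −1.59), Rpl7a (−3.73), Rps21 (−3.14), Rps3a1 (−2.18), Rpl13 (−1.77), Rps24 (−1.44) and Rps23rg1 (−1.37), all chosen for that gap after it was seen. Only for Rps21 and Rps23rg1 was that probe the one used above.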
